A study of Mus musculus with 4 samples.

Results

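Bhlhe40 and Bhlhe41 (also known as Dec1 and Dec2) encode paired paralogous repressors of the basic helix-loop-helix (bHLH) class. They are 2 of the 26611 genes in the count table and were found by their Entrez gene numbers, 20893 and 79362. They were chosen by the measured KO against WT difference of Bhlhe41, already seen in these data, with Bhlhe40 taken as its paralogue. Their knock-out against wild-type values are therefore given as a description, without a test. RNA was sequenced from natural killer (NK) cells of mouse spleen, innate lymphocytes that kill target cells, in 2 wild-type (WT) and 2 Tcf7 knock-out (KO) libraries, each from an individual mouse. All 4 mice had the C57BL/6 background, and all cells were sorted as lacking TCRbeta and bearing NK1.1, NKp46, CD11b and KLRG1, a mature NK cell gate. The labels name no Tcf7 allele, age, sex, treatment or time of day of collection. Tcf7 encodes Tcf-1, a transcription factor of the Wnt pathway that is also used widely in lymphocyte development.

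Both proteins bind E-boxes, short DNA elements read as CACGTG, and recruit histone deacetylases and other corepressors. In most tissues they belong to the circadian clock, where they oppose activation by Clock and Bmal1 (gene Arntl) and are themselves switched on through E-boxes. In lymphocytes Bhlhe40 is best known in helper T cells, where it limits interleukin 10 and favours interferon gamma and GM-CSF, and Bhlhe41 is known from B-1 cells. Both genes are also needed in tissue macrophages, and hypoxia induces both.

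Both genes lie on chromosome 6, 37.2 Mb apart. In RefSeq on GRCm38.p6 (the mm10 assembly) Bhlhe40 runs from 108660629 to 108666925 on the plus strand. Bhlhe41 runs from 145858243 to 145865420 on the minus strand. The main GENCODE transcript of each has 5 exons, with coding sequences of 1233 and 1230 bases that were identical at 61.9% of their 1122 aligned bases. The longest run of letters shared by any transcripts of the genes was 16 bases, in either orientation. A noncoding gene, 0610040F04Rik, overlaps the start of Bhlhe40 on the opposite strand, and the strand setting of the counting is not given in the sources used here. Its own counts were 13 and 21 in WT cells versus 4 and 8 in KO cells, far below those of Bhlhe40. Gm43909, a transcribed region awaiting experimental support, overlaps Bhlhe41 on the opposite strand in GENCODE and was not analysed here, so reads of these genes cannot be told apart where they overlap.

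The RefSeq promoter table held Bhlhe41, whose stretch before the start site is shown because it carries the element that the pair itself reads. Tef (log2 fold change, KO minus WT, -0.63) and Per1 (-0.49) are shown with it as clock genes that have the same element and are described below. Cry1 (-0.05), also described below, and Ciart (-0.60) have the element too and are not shown. Each stretch lies outside annotated exons, and capitals mark CACGTG. The positions are chr6:145865559-145865670 (minus strand) for Bhlhe41, chr15:81811164-81811413 (plus strand) for Tef and chr11:69098699-69098947 (plus strand) for Per1, all GRCm38.p6.
Bhlhe41: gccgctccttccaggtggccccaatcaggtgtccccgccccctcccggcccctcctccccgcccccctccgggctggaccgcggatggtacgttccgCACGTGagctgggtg
Tef: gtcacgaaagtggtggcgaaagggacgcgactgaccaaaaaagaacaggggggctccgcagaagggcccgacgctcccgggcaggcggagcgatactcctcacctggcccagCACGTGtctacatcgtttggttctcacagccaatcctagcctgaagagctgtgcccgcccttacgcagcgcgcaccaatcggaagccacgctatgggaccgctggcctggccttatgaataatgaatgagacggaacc
Per1: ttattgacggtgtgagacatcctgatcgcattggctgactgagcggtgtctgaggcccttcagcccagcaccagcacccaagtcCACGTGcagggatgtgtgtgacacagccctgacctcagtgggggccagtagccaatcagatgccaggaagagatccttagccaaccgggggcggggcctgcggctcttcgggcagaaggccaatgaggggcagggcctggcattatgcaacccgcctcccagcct
The element stood 153 bases before the RefSeq start of Bhlhe41, and 138 and 166 bases before the starts of Tef and Per1 used here. Another RefSeq start of Tef had it 127 bases before, and another of Per1 had none within 250 bases. CACGTG reads the same on both strands and was present within 250 bases before a start site in 1854 of 27025 genes (6.86%). Of 17 clock genes with a promoter entry, 4 (23.5%) had it, namely Ciart, Cry1, Per1 and Tef. Those without it included Rora (log2 fold change -1.76), Nr1d1 (-1.08), Dbp (-0.38) and Clock (0.14). The Tcf/Lef letters CTTTGAT, searched on both strands, were present in 3.72% of genes and not in the Bhlhe41 window or in those of the 17 clock genes. These are matches of letters, not measured binding.

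Total counts ranged from 28254693 to 40175537, and the unit CPM used for levels divides a gene's count by its library's TMM-adjusted total. Before the TMM adjustment 1 CPM stood for 28.3 to 40.2 counts, and a count of 0 allows up to 0.0747 to 0.106 CPM (3 counts, counting error only). As a check of the labels, Tcf7 stood at 89.5 and 79.1 CPM in WT cells versus 11.2 and 25.0 CPM in KO cells. NK cell identity genes were high in every library, with 15 of 16 listed genes found and tested, a median log2 fold change of -0.03, and Ncr1 between 1510 and 1732 CPM. In both genotypes the library numbered 1 parted from that numbered 2, as for Per1 and Ncor1 below. Over 12723 tested genes the deviations of WT library 1 and KO library 1 from their group means correlated at 0.728. The main fit uses genotype only and counts this split as spread. The labels do not say what the numbers share.

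Bhlhe40 was the abundant member. Its counts were 10245 and 13902 in WT cells versus 6891 and 12112 in KO cells. The levels were 315 and 354 CPM in WT cells versus 235 and 336 CPM in KO cells, or 335 ± 27.4 and 285 ± 71.4 CPM (SD, n = 2 each). KO library 1 was the lowest of the 4, KO library 2 lay between the WT libraries, and the groups overlapped. As a log2 fold change, KO minus WT, this was -0.23 (SE 0.26). KO library 1 set against WT library 1 gave a log2 ratio of -0.42, and KO library 2 against WT library 2 gave -0.08. The fitted difference was 0.01 without KO library 1 and -0.48 without KO library 2. Of the 12723 genes tested, 8242 had a smaller absolute log2 fold change than Bhlhe40.

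Bhlhe41 was scarce in WT cells and several times higher in KO cells. It was counted 65 and 39 times in WT and 283 and 419 times in KO. The levels were 2.00 and 0.993 CPM in WT cells versus 9.65 and 11.6 CPM in KO cells, with group means of 1.50 ± 0.712 and 10.6 ± 1.40 CPM (SD, n = 2 each). Both KO libraries lay above both WT libraries (9.64% of all tested genes did so), and the ratio of the means was 7.11. The log2 fold change was 2.83 (SE 0.45), and 58 of 12723 tested genes had a higher one. Among the 1995 genes within a factor of 2 of its mean level, 12 had a higher one. Bhlhe41 was chosen by this same difference, so these ranks describe the choice and are no test of it. The log2 ratio was 2.22 for the pair of libraries numbered 1 and 3.42 for the pair numbered 2, the smaller one against WT library 1, where Bhlhe41 was the higher of the WT values. In bulk RNA more cells with the transcript and more transcript per cell cannot be told apart.

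Levels of the paralogues were compared per kilobase of counted length (RPKM), which was 3113 bases for Bhlhe40 and 1421 bases for Bhlhe41. The longest GENCODE transcript of Bhlhe41 has 6133 exonic bases, so its value refers to the counted part alone. Bhlhe40 stood at 101 and 114 RPKM in WT cells versus 75.5 and 108 RPKM in KO cells. Bhlhe41 stood at 1.41 and 0.699 RPKM in WT cells versus 6.79 and 8.18 RPKM in KO cells. Bhlhe40 was thus the higher by a factor of 71.9 and 163 in the WT libraries and of 11.1 and 13.2 in the KO libraries. Bhlhe41 made up 1.37% and 0.611% of the summed RPKM of the pair in WT and 8.25% and 7.05% in KO. The summed RPKM was 103 and 114 in WT and 82.3 and 116 in KO, with overlap of the groups.

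**Figure D1:**
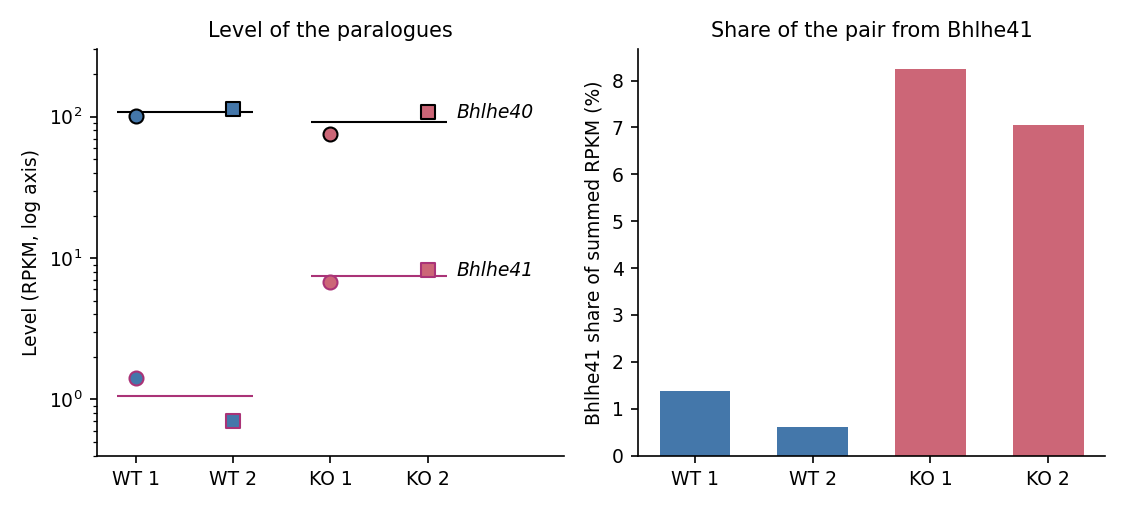
Left, RPKM of Bhlhe40 and Bhlhe41 in each library on a log axis, with lines at the group means (n = 2); right, the share of the summed RPKM that came from Bhlhe41, in percent. Bhlhe40 stays between 75.5 and 114 RPKM in all 4 libraries, while Bhlhe41 lies at or below 1.41 RPKM in WT and at or above 6.79 RPKM in KO.

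Bhlhe40 exceeded 90.1% to 94.5% of tested genes by RPKM across the 4 libraries. Bhlhe41 exceeded 23.1% and 16.1% of them in WT and 47.8% and 48.1% in KO. Against 51 other bHLH and Id genes, Bhlhe40 ranked 2 in WT library 1 and 3 in the other libraries. Bhlhe41 ranked 28 and 32 of 53 in WT and 21 and 24 in KO. The most highly expressed of these genes was Id2, an inhibitor of bHLH factors needed for NK cell development, at 1046 and 1081 RPKM in WT cells versus 884 and 966 RPKM in KO cells. Mxd4, a Max-binding repressor of Myc targets, came next at 88.3 and 120 RPKM in WT cells versus 122 and 131 RPKM in KO cells. The most highly expressed after these was Max itself, at 51.9 to 62.0 RPKM.

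Outside the pair, no gene of the bHLH class was called by edgeR or DESeq2. Over all genes, edgeR's quasi-likelihood test called 0 of 12723 (0%) at an adjusted p under 0.05, with 361 (2.84%) at an unadjusted p under 0.05. DESeq2 called 71 (0.558%) and limma voom 0. Of the 37 bHLH and Id genes tested other than the pair, 18 had a log2 fold change above 0 (48.2% of all tested genes did) and 19 below, with a median of -0.01, the same as over all tested genes. That median was -0.21 without WT library 1, 0.22 without WT library 2, 0.18 without KO library 1 and -0.24 without KO library 2. In the fit of all libraries 1 had an unadjusted p under 0.05. That was Mxd3, a Max-binding repressor seen in dividing cells, at 0.615 and 0.356 CPM in WT cells versus 4.13 and 1.41 CPM in KO cells (a log2 fold change of 2.51, SE 0.74, edgeR adjusted p = 1.00). Both KO libraries were above both WT libraries for Mxd3, and KO library 1 was the higher of the KO values. In this class 2 genes had KO libraries above both WT libraries (9.64% of all tested genes did) and 4 had them below (11.6%). Hey1, a Notch-induced repressor, stood at 2.68 and 2.98 CPM in WT cells versus 1.16 and 1.75 CPM in KO cells (a log2 fold change of -0.96, SE 0.42). Heyl (0.97, SE 0.67) and Epas1 (-0.83, SE 1.22), a hypoxia-inducible factor, overlapped between the groups. Id3 stood below 1.2 CPM in all libraries and overlapped too.

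**Figure D2:**
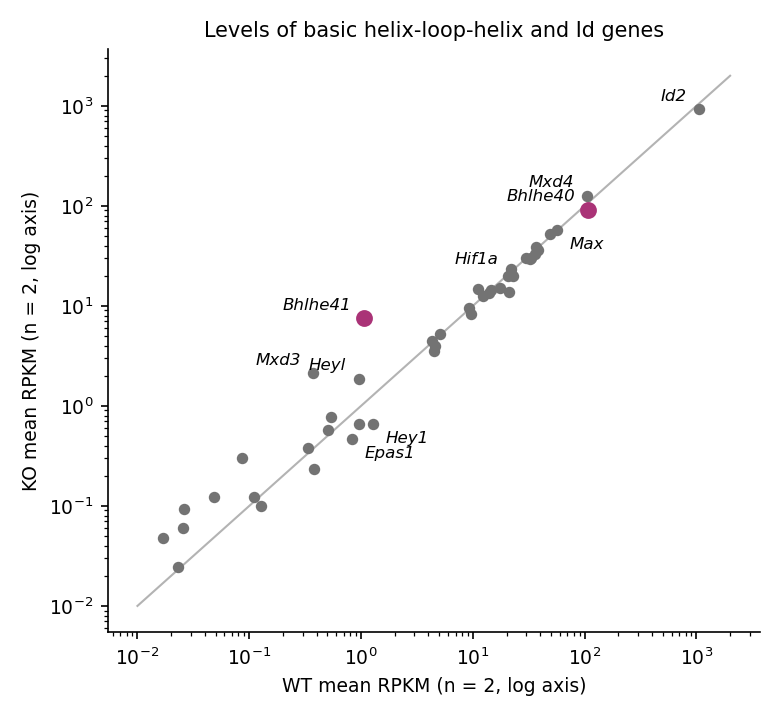
Mean RPKM in KO against mean RPKM in WT (n = 2 each, log axes) for bHLH and Id genes with a mean above 0.01 RPKM in both groups; the line marks equal levels. Bhlhe40 lies near the line among the highest genes, and Bhlhe41 lies above it at 1.41 and 0.699 RPKM in WT against 6.79 and 8.18 RPKM in KO.

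Genes of the circadian clock, the pathway that the pair acts on, had a median below that of all tested genes. Of 22 listed clock genes 19 were tested and the others were too low. No clock gene was called by edgeR or DESeq2. The median log2 fold change was -0.20, against -0.01 over all tested genes, and 15 of the 19 were below 0. In 6 of the 19 each KO value was under each WT value (11.6% over all tested genes), and in 0 of them above (9.64%). The median was -0.33 between libraries numbered 1 and -0.22 between those numbered 2. It was -0.05 without WT library 2, -0.10 without KO library 1 and -0.44 without KO library 2. Over genes with at least 5 CPM in 2 libraries it was -0.09.

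Among the output factors of the clock, Tef, a PAR bZIP activator, had the smallest unadjusted p of the list. Tef stood at 118 and 121 CPM in WT cells versus 80.7 and 73.6 CPM in KO cells, or 119 ± 1.96 versus 77.2 ± 5.01 CPM (SD, n = 2 each). The WT values were close together and both KO values lay below them (log2 fold change -0.63, SE 0.19, edgeR unadjusted p = 0.0258, adjusted p = 1.00). Dbp, its relative and a usual target of the clock activators, stood at 14.4 and 12.2 CPM in WT cells versus 12.0 and 8.43 CPM in KO cells (-0.38, SE 0.28). Nfil3, the opposing bZIP repressor that NK cells need in order to develop, overlapped at 56.5 and 66.2 CPM in WT cells versus 49.2 and 66.2 CPM in KO cells.

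Of the nuclear receptors of the clock, the activator Rora stood at 2.34 and 5.65 CPM in WT cells versus 0.648 and 1.69 CPM in KO cells (-1.76, SE 0.72, edgeR adjusted p = 1.00). The repressor Nr1d1 stood at 1.14 and 2.34 CPM in WT cells versus 0.614 and 1.03 CPM in KO cells (-1.08, SE 0.60). Its more abundant relative Nr1d2 overlapped (-0.20, SE 0.24), with 97.6 and 76.6 CPM in WT cells versus 83.7 and 67.7 CPM in KO cells. Rora and Nr1d1 had both KO values under both WT values, and neither passed the test.

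None of the activators and core repressors passed the test. Clock stood at 17.4 and 22.0 CPM in WT cells versus 18.4 and 24.8 CPM in KO cells, and Arntl at 21.4 and 19.3 against 18.4 and 19.1 CPM. Per1 stood at 20.9 and 35.0 CPM in WT cells versus 10.7 and 29.1 CPM in KO cells (-0.49, SE 0.57). Per1 was the lower in the library numbered 1 of each genotype, so its groups overlapped, as did those of Per3. Per2 had the highest log2 fold change of the list (0.24, SE 0.81), with 1.64 CPM in KO library 1 and 8.57 CPM in KO library 2. Cry1 overlapped (-0.05, SE 0.22), and Csnk1d, the most highly expressed member and a kinase that acts on Per proteins, had a log2 fold change of 0.07 (SE 0.20).

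**Figure D3:**
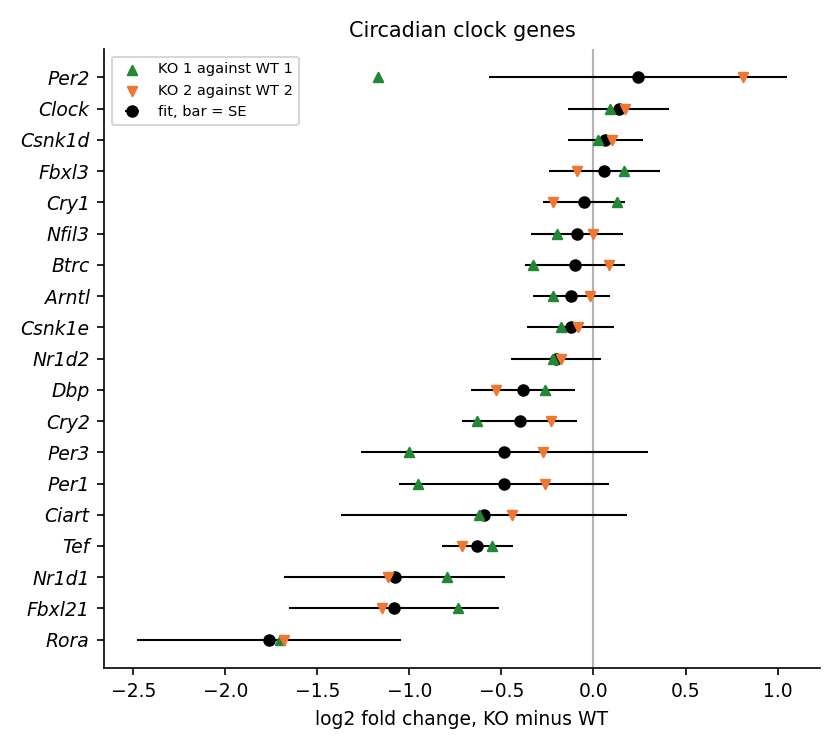
Log2 fold change, KO minus WT, of the 19 tested clock genes from the fit (circles, bars show the SE) and between libraries of the same number (triangles). Most genes lie left of 0, from Rora at -1.76 to Per2 at 0.24, and the library pairs part most for Per2.

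Corepressors and partners of the pair were expressed in both genotypes. All 17 listed genes were tested, 13 were below 0 with a median of -0.06, and none was called or had an unadjusted p under 0.05. The median turned with the library left out, from -0.33 without WT library 1 and -0.45 without KO library 2 to 0.22 without WT library 2 or KO library 1. With all libraries the range of single genes was -0.20 to 0.16. Hdac1, a histone deacetylase, stood at 42.3 and 41.0 CPM in WT cells versus 46.2 and 45.8 CPM in KO cells. Ehmt2, the G9a methyltransferase, overlapped (0.14, SE 0.39), and Ncor1, with the highest value (0.16, SE 0.99), ranged from 43.8 to 227 CPM with low values in both libraries numbered 1. Gps2 (-0.19, SE 0.37) and Rcor1 (-0.20, SE 0.43) overlapped too.

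Hypoxia response genes, taken because hypoxia induces both paralogues, lay on both sides of 0. Of 24 tested, 9 were above 0 and 15 below, with a median of -0.04. In 6 of the 24 each KO value was under each WT value, as in 6 of the 19 clock genes (11.6% over all tested genes). In 2 of the 24 each KO value was above (9.64%). Hif1a, the hypoxia-inducible factor, stood at 110 and 100 CPM in WT cells versus 105 and 99.8 CPM in KO cells. Ndrg1, a stress-induced gene, had the highest value, at 15.7 and 7.77 CPM in WT cells versus 45.9 and 33.0 CPM in KO cells (1.75, SE 0.43, edgeR unadjusted p = 0.0127, adjusted p = 1.00, DESeq2 adjusted p = 0.0591). Vegfa, a growth factor gene, had -0.59 (SE 0.37). Of the glycolytic members, Ldha had 0.27 (SE 0.22) and Aldoa -0.17 (SE 0.20).

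DESeq2 called 1 gene of the hypoxia list, where 24 were tested, against 0.558% of all tested genes. This gene was below the level set for naming and was picked out after its values were seen. Egln3, a prolyl hydroxylase that marks HIF proteins for degradation, was counted 50 and 80 times in WT and 5 and 7 times in KO. Its DESeq2 log2 fold change was -3.27 with an adjusted p of 0.00958, and edgeR gave an adjusted p of 1.00. That DESeq2 call did not hold when WT library 1 (adjusted p = 0.850), WT library 2 (1.00), KO library 1 (0.482) or KO library 2 (0.411) was left out, with log2 fold changes from -3.45 to -3.06. Each of those fits had 1 library in an arm, which is assumed to vary like the other group.

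Genes that other work links to the pair in lymphocytes and macrophages were mostly cytokines and their regulators, and 12 of 20 were tested. None was called by edgeR or DESeq2. Of the 12, 7 were above 0 with a median of 0.25. That median was 0.04 with no filter on low counts and, with 1 library left out, between -0.21 (without KO library 2) and 0.19 (without KO library 1). Il10 was counted 2 and 0 times in WT and 0 and 1 times in KO, so no difference was detectable at this depth. Ifng stood at 60.9 and 44.5 CPM in WT cells versus 66.5 and 63.1 CPM in KO cells (0.30, SE 0.25). Csf2, which encodes GM-CSF, was counted 24 and 14 times in WT and 38 and 43 times in KO (1.19, SE 0.58, edgeR unadjusted p = 0.101). Both cytokine genes had KO values above the WT values, and neither passed the test. Of the 12 tested, 3 had this pattern (9.64% of all tested genes did) and 1 the opposite one (11.6%). The latter was Il2ra, at 0.769 and 0.840 CPM in WT cells versus 0.682 and 0.666 CPM in KO cells. Tnf, counted 5 and 5 times in WT and 2 and 3 times in KO, was also lower but was not tested.

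Of the regulators in that list, E2f1, a cell cycle activator, had the smallest unadjusted p. E2f1 stood at 2.37 and 1.86 CPM in WT cells versus 5.49 and 3.80 CPM in KO cells (1.13, SE 0.38, edgeR unadjusted p = 0.0362, adjusted p = 1.00). Bcl6, a repressor of B and T cell differentiation, overlapped at 15.9 and 22.7 CPM in WT cells versus 7.60 and 18.4 CPM in KO cells. Gata3 (-0.14, SE 0.61) and Myc (0.41, SE 0.46) overlapped too. Klf2, a quiescence factor and the most highly expressed of the list, had -0.06 (SE 0.32).

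The genes beside each member were set against it. Around Bhlhe40, 6 of the 10 nearest protein-coding genes were tested, with log2 fold changes from -0.14 to 0.05, all with overlap of the groups. The nearest tested gene, Itpr1, a calcium channel gene 110 kb away, had -0.03 (SE 0.71). On the other side Arl8b, a GTPase gene of lysosome transport, had 0.05 (SE 0.20). Around Bhlhe41, 7 of 10 were tested, none was called by edgeR or DESeq2, and the median was 0.00. On its higher side, where Bhlhe41 has its start site, lies Sspn, which encodes a membrane protein of the dystrophin complex. Sspn runs from 145931873 to 145965225, 66.5 kb from Bhlhe41. Sspn was counted 5 and 5 times in WT and 45 and 38 times in KO, or 0.154 and 0.127 versus 1.53 and 1.05 CPM (a log2 fold change of 3.17, SE 0.59, edgeR unadjusted p = 0.00395, adjusted p = 1.00, DESeq2 adjusted p = 0.0558). Both KO libraries were above both WT libraries for Sspn, at low counts. Rassf8, on the lower side and nearer at 37.2 kb, was at or below 0.23 CPM in every library and was not tested. Farther out, Itpr2 overlapped with 18.0 and 74.1 CPM in WT cells versus 14.3 and 70.8 CPM in KO cells, and Ints13 had 0.51 (SE 0.23).

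**Figure D4:**
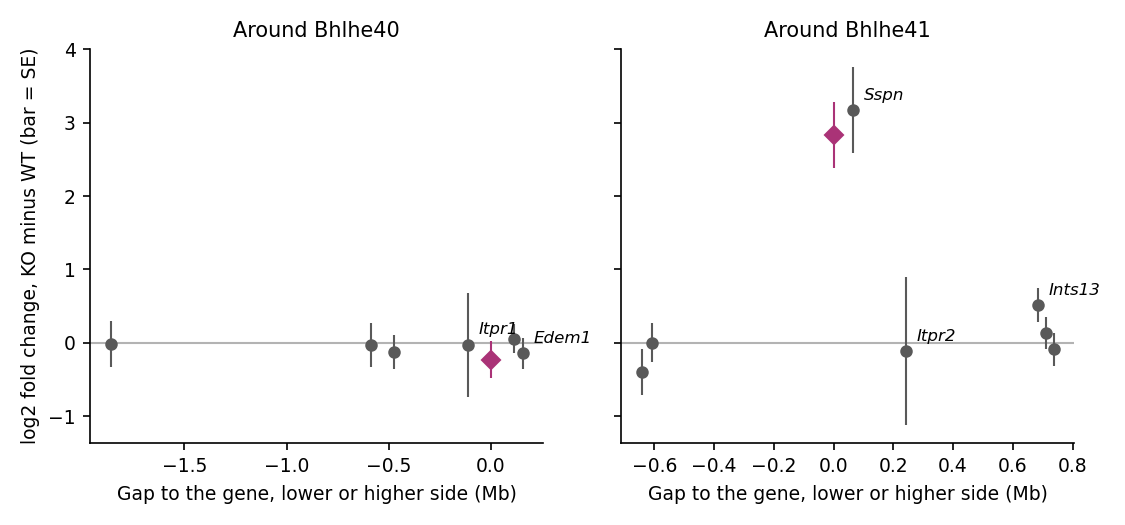
Log2 fold change, KO minus WT (bars show the SE), of tested neighbouring genes against the gap in Mb to Bhlhe40 (left) or Bhlhe41 (right), which are drawn as diamonds at 0. Near Bhlhe41 (2.83) only Sspn (3.17) lies above 1, and near Bhlhe40 (-0.23) all neighbours lie between -0.14 and 0.05.

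Genes with the most similar profile were named by the Euclidean distance between centred log2 CPM values over the 4 libraries, among 11190 genes with a mean of at least 1 CPM. For Bhlhe40 they were Ikzf1 (distance 0.0254), Anapc1 (0.0272), Sun2 (0.0287), Ubash3b (0.0309) and Trp53inp2 (0.0371). Ikzf1, the gene of the lymphoid factor Ikaros, stood at 1088 and 1243 CPM in WT cells versus 827 and 1185 CPM in KO cells, lowest in KO library 1 as Bhlhe40 was. For Bhlhe41 the nearest were Klra5 (0.655), Igkv4-59 (0.744), Tbc1d4 (0.791), Tppp3 (0.793) and Espl1 (0.797). The values were not scaled for the size of a gene's changes. Bhlhe40 varied little and Bhlhe41 much, so their distances cannot be compared. Klra5, a Ly49 receptor gene also on chromosome 6, stood at 15.2 and 12.9 CPM in WT cells versus 105 and 86.0 CPM in KO cells. Igkv4-59, an immunoglobulin kappa variable gene on chromosome 6 too, stood at 0.369 and 0.356 CPM in WT cells versus 3.65 and 3.33 CPM in KO cells. Tbc1d4, a regulator of glucose transporter traffic, stood at 0.769 and 0.713 against 4.13 and 8.16 CPM. The measure rests on 4 values a gene, and reads of Klra5 and Igkv4-59 can be shared with near-identical genes of their families.

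Markers of other cells were set beside Bhlhe41, since B-1 cells and macrophages also express it. The 16 B cell markers summed to 208 and 159 CPM in WT cells versus 250 and 193 CPM in KO cells, mostly Ighm, and the sum overlapped between the groups. Of 14 B cell markers tested, 9 were above 0 with a median log2 fold change of 0.06. Igkv4-59, an immunoglobulin gene named above as higher in both KO libraries, was not in this list. Of the 20 macrophage markers, Csf1r stood at 14.0 and 7.64 CPM in WT cells versus 24.1 and 6.46 CPM in KO cells, and C1qa at 8.65 and 4.23 against 16.8 and 3.63 CPM. Both were highest in KO library 1 and lowest in KO library 2. Lyz2, shared with neutrophils, stood at 92.7 and 3.31 against 258 and 18.6 CPM, and Cd68 at 6.49 and 5.93 against 12.1 and 7.93 CPM. Of the 19 macrophage markers tested, 16 were above 0 with a median log2 fold change of 0.49, which was -0.82 without KO library 1, and none was called by edgeR or DESeq2. Both KO values lay under both WT values for Cd163 and Ly6c2. The macrophage sum (1254 to 2195 CPM) was mostly Ly6c2 and Ccr2 and overlapped as well. The 15 T cell markers summed to 433 and 354 CPM in WT cells versus 456 and 296 CPM in KO cells, and 5 of 13 tested were above 0. Among them Trac, the constant part of the T cell receptor alpha chain, stood at 5.88 and 8.30 CPM in WT cells versus 94.0 and 36.1 CPM in KO cells (log2 fold change 3.20, edgeR adjusted p = 1.00, DESeq2 adjusted p = 7.04e-06). Cd28, a costimulatory receptor, stood at 88.9 and 64.7 against 39.9 and 23.1 CPM and was called by neither. Lyz2, Cd68, Cd163, Trac and Cd28, and Car2 and Hba-a2 below, were picked out after their values were seen.

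The summed levels of neutrophil and erythroid markers were above the WT values in both KO libraries. The 15 neutrophil markers summed to 39.8 and 1.96 CPM in WT cells versus 463 and 101 CPM in KO cells. Their log2 fold changes were above 0 in 14 of 14 tested, against 48.2% of all tested genes. Elane and Prtn3 were counted 0 times in WT library 2, as were Ctsg, Ltf and Ngp. The 12 erythroid markers found summed to 267 and 235 CPM in WT cells versus 508 and 322 CPM in KO cells, with 10 of 12 above 0. Most of the erythroid sum in WT cells was Car2, which overlapped at 211 and 194 CPM in WT cells versus 218 and 158 CPM in KO cells. Hba-a2, a haemoglobin gene with a near-identical copy, stood at 13.3 and 10.9 against 70.1 and 53.5 CPM. In each of these lists DESeq2 called 4 genes, all higher in KO cells, against 0.558% of all tested genes. By edgeR 0 were called, as over all 12723 tested genes. Both sums were larger in KO library 1 than in KO library 2. Bhlhe41 was 9.65 CPM in the former and 11.6 CPM in the latter. In WT cells both sums, and Bhlhe41 at 2.00 and 0.993 CPM, were larger in library 1 than in library 2. With all libraries the median log2 fold change was 4.11 for the neutrophil list and 2.08 for the erythroid list. Without KO library 1 these medians were 2.33 and 1.23, and the log2 fold change of Bhlhe41 was 2.96. Without KO library 2 they were 5.21 and 2.62, with 2.72 for Bhlhe41. Without WT library 1 they were 7.74 and 2.38, with 3.41 for Bhlhe41. Without WT library 2 they were 3.51 and 1.99, with 2.43 for Bhlhe41. The part of any of these cell types in the level of Bhlhe41 was not tested.

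**Figure D5:**
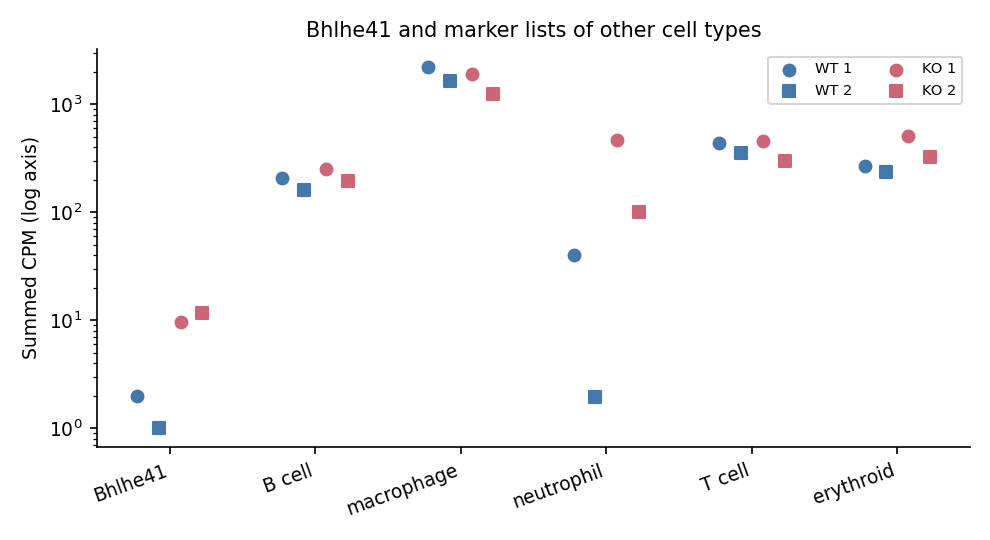
CPM of Bhlhe41 and summed CPM of marker lists of other cell types in each library (log axis; circles are libraries numbered 1, squares those numbered 2). The neutrophil sum is 39.8 and 1.96 CPM in WT libraries 1 and 2 and 463 and 101 CPM in KO libraries 1 and 2. Bhlhe41 is 2.00 and 0.993 CPM in the WT libraries and 9.65 and 11.6 CPM in the KO libraries.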

How the data were processed

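Gene expression was measured by RNA sequencing in 2 WT and 2 Tcf7 KO libraries. The authors deposited whole-number counts of reads per Entrez gene with a gene length, and the submitters' processing notes name featureCounts and mm10. No aligner, version or strand setting is given in the sources used here. All 4 single-sample files held the same counts as the series table, and 0 columns had no sample. Of 26611 genes 25275 had a RefSeq symbol, and the rest held 1.23% of counts.

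The filterByExpr filter (minimum count 10) kept 12723 genes. They were tested with the quasi-likelihood method of edgeR 4.0.16 (R 4.3.3, TMM, robust, genotype only, two-sided), Benjamini-Hochberg adjusted over all genes, threshold 0.05. The SE is the fold change over the root of F. Ratios of same-numbered libraries add 0.1 CPM. DESeq2 1.42.0, limma 3.58.1 voom, other scalings and filters, a block and each library left out were alternatives. With 2 libraries a group an exact permutation gives no p under 0.333, and p-values rest on spread shared across genes. The tests were checked on simulated counts. Of simulated 2-fold changes edgeR called 1.52% and DESeq2 13.6%, and of 8-fold changes 81.5% and 86.2%. Of the genes called, 19% by edgeR, 34.5% by DESeq2 and 11.5% by voom had been simulated without a change. In the simulation, calls by DESeq2 thus held more false ones than the threshold of 0.05 implies, and edgeR missed most small changes. Simulated libraries were drawn independently, without the split by library number seen in the data. These rates therefore need not hold for the real counts. Coding sequences were aligned globally with Biopython 1.88 on GENCODE M21.

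Members and lists were chosen with earlier results of these data known. Named genes were the 3 most highly expressed and the 2 highest and 2 lowest fold changes (mean of at least 1 CPM) of each list, genes passing the test, 15 fixed genes, 5 neighbours on each side and the 5 nearest profiles. Some lists share genes, such as Myc. Some named genes are not reported here.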

Additional observations from a re-analysis of the deposited data

How the results depend on the processing

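The log2 fold change of Bhlhe41 was between 2.82 and 2.93 under the other scalings, filters, tests and the replicate block (2.88), and between 2.43 and 3.41 with 1 library left out, the highest without WT library 1. That of Bhlhe40 was between -0.25 and -0.21 under the former (-0.25 with the replicate block) and between -0.48 and 0.01 with 1 library left out. The count of genes called was 0 in the main test, 35 with no filter on low counts (20484 genes tested), 71 by DESeq2, 221 with the replicate block, and 0 to 53 with 1 library left out (33 without KO library 1, 53 without KO library 2). The labels give no source for a pairing by number. The deviations from the group mean of the libraries numbered 1 correlated at 0.728 over 12723 genes, which are not independent replicates. The Egln3 calls without each library were chosen after seeing the data. Over these alternatives the median of the NK identity list was between -0.05 and 0.04 and that of the hypoxia list between -0.10 and 0.01. Depth limits what low-count genes such as Il10, Sspn and Egln3 can show, and 2 libraries a group limit every comparison.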
